A study of Mus musculus with 6 samples.

Results

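The 51 genes described here encode proteins of the complement and coagulation systems, most of them plasma proteins, and were taken by symbol from a table of 29543 mouse gene IDs. All 51 were found in the table. Of these, 47 had a mean of at least 1 FPKM (fragments scaled by transcript length and by the reads of the library) over the libraries and were tested, and Cfd, C3ar1, F8 and F2rl1 lay under this minimum. By the cell type known as the main source in liver, 38 genes were set as liver-made, 3 as macrophage-made (C1qa, C1qb and C1qc) and 10 as of other or mixed source.

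RNA was measured in mouse liver by sequencing after hepatic ischemia and reperfusion (IR), in which the blood supply of liver tissue is interrupted and then restored during open abdominal surgery, and after a laparotomy alone (Sham). There were 3 IR and 3 Sham libraries, and laparotomy was common to both groups. The labels name no genetic change and no drug in either group, and they do not give the strain, sex or age of the mice, the times of ischemia and reperfusion, or the animal behind each library. Since the libraries of a group may come from 1 source, the p-values reflect only how far these libraries differ from each other, a spread that may be technical.

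Complement is a cascade of plasma proteases that is started by antibody-bound C1q, by mannose-binding lectins on sugar surfaces, or by the slow turnover of C3 itself, and that ends in a membrane pore. Coagulation is a second protease cascade, in which thrombin turns fibrinogen into fibrin, and it is limited by protein C, protein Z and tissue factor pathway inhibitor and undone by plasmin. Hepatocytes make most of these proteins and secrete them into blood, whereas the chains of C1q come mainly from tissue macrophages, which in liver are the Kupffer cells. Fibrinogen is a positive acute phase protein, made in larger amounts after injury or infection under the influence of interleukin-6.

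The libraries held 54042831 to 68922517 reads in IR and 53622229 to 71752584 reads in Sham, as rebuilt from the FPKM values. Mitochondrially encoded genes took 14.9% to 15.7% of the summed FPKM in IR and 15.6% to 16.6% in Sham. Alb, which encodes albumin and is a defining hepatocyte gene, stood at 38203 ± 1343 FPKM in IR and 46544 ± 2615 FPKM in Sham (SD, n = 3 each). Differences were tested with limma on log2(FPKM + 1), with p-values adjusted over all 10316 genes tested by the Benjamini-Hochberg method, and the words rose and fell are used for an adjusted p under 0.05. Over all genes tested the median change was -0.23 on the log2 scale, so that a gene can fall on the deposited scale by less than the median gene. Each gene was therefore also compared under 4 other scalings, and a gene whose direction turned under any of them is named as such.

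Of the 47 complement and coagulation genes tested, 13 rose and 25 fell in IR. These were 27.7% and 53.2% of the members, against a background of 24.3% of all genes that rose and 53.8% that fell. In either direction 80.9% of the members passed, against 78.1% of all genes, and the 3 IR libraries lay wholly above or below the 3 Sham libraries in 80.9% of the members, against 80.6% of all genes. The counts of members called were thus near the background in every respect. The median log2 fold change of the members was -0.30, and 24 of them lay below the median of all genes. What set the genes apart from each other was the size of the change, from a log2(FPKM + 1) fold change of 1.78 for Fgg to -1.21 for Klkb1.

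The number of members in each direction depended on the scaling. Under median-of-ratios scaling over the tested genes, which brought the median of all genes to 0.0027, 21 members rose and 16 fell, against a background of 38.2% of all genes higher and 38.1% lower. Under all 5 scalings 11 members (23.4%) rose, against 22.9% of all genes, namely Fga, Fgb, Fgg, C5ar1, Clu, C6, Mbl1, C9, Cfp, Cpb2 and Kng2. Another 11 members (23.4%) fell under all 5, against 32.3% of all genes, namely Klkb1, Proz, Mbl2, Masp2, Tfpi, F7, Cd59a, C2, F13b, C1qa and Hrg.

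**Figure D1:**
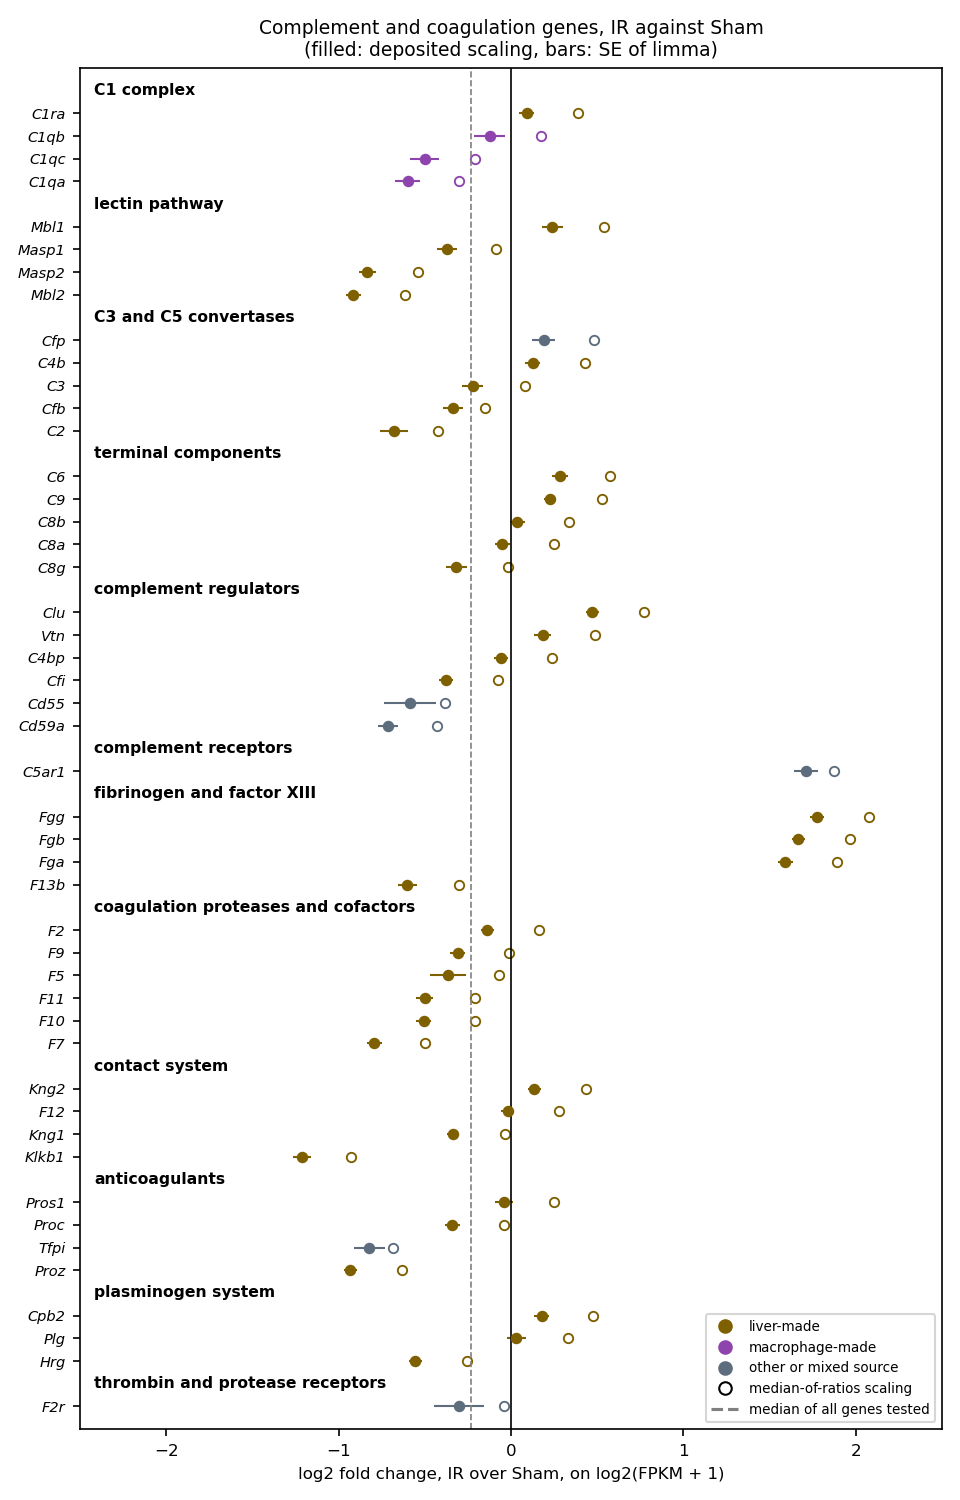
Log2 fold change (IR over Sham, on log2(FPKM + 1)) of the 47 genes tested, grouped by role and coloured by main source. Filled points with bars are the deposited scaling with the SE of limma, open points are median-of-ratios scaling over the tested genes, and the dashed line is the median of all genes tested at -0.23. The 3 fibrinogen chains and C5ar1 stand at the right, Klkb1 is farthest to the left, and the open points lie to the right of the filled ones.

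The 3 chains of fibrinogen, the precursor of the fibrin clot, changed more than any other liver-made member. Fga, which encodes the alpha chain, had 5589.8, 5617 and 5641 FPKM in the IR libraries, against 1803, 1959 and 1836 FPKM in the Sham libraries. Fgb, which encodes the beta chain, had 4631, 4642 and 4699 FPKM in IR and 1449, 1513 and 1438 FPKM in Sham. Fgg, which encodes the gamma chain, had 5121, 4931 and 5243 FPKM in IR and 1511, 1469 and 1485 FPKM in Sham. In all 3 genes every IR library lay above every Sham library, and the spread within a group was small beside the distance between the groups.

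The log2 fold change was 1.59 (SE 0.0438) for Fga, a ratio of mean FPKM of 3.01, with a limma adjusted p of 7.52e-08. For Fgb it was 1.67 (SE 0.0387, ratio 3.18, adjusted p = 3.94e-08) and for Fgg 1.78 (SE 0.0404, ratio 3.43, adjusted p = 3.61e-08). The rises were smallest under quantile normalization, at 1.23, 1.33 and 1.44 on the log2 scale for Fga, Fgb and Fgg. The chains lie within 1 stretch of mouse chromosome 3 (mm10, 83007724 to 83049863), where Fga and Fgg are on the plus strand and Fgb is on the minus strand. Together they took 3.75% ± 0.0512 of the summed FPKM in IR, against 1.20% ± 0.0407 in Sham (SD, n = 3 each). The other 48 members together took 2.14% ± 0.00658 in IR and 2.41% ± 0.0626 in Sham, so that fibrinogen alone carried the larger share of all 51 members in IR (5.89% ± 0.0574 in IR, 3.62% ± 0.1005 in Sham).

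The chains did not move by exactly the same factor. Per unit of length, the ratio of Fgg to Fgb was 1.09 ± 0.0284 in IR and 1.02 ± 0.0389 in Sham, and that of Fga to Fgb was 1.21 ± 0.00487 in IR and 1.27 ± 0.0256 in Sham (SD, n = 3 each). In both ratios the 2 groups did not overlap, and an exact two-sided permutation test of 3 against 3 libraries cannot go below p = 0.1. The fourth gene of clot structure, F13b, which encodes the B subunit of the clot-stabilising factor XIII, fell to 57.7 ± 1.94 FPKM in IR, against 88.3 ± 5.33 FPKM in Sham (log2 fold change -0.60, SE 0.0558, limma adjusted p = 3.01e-05).

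**Figure D2:**
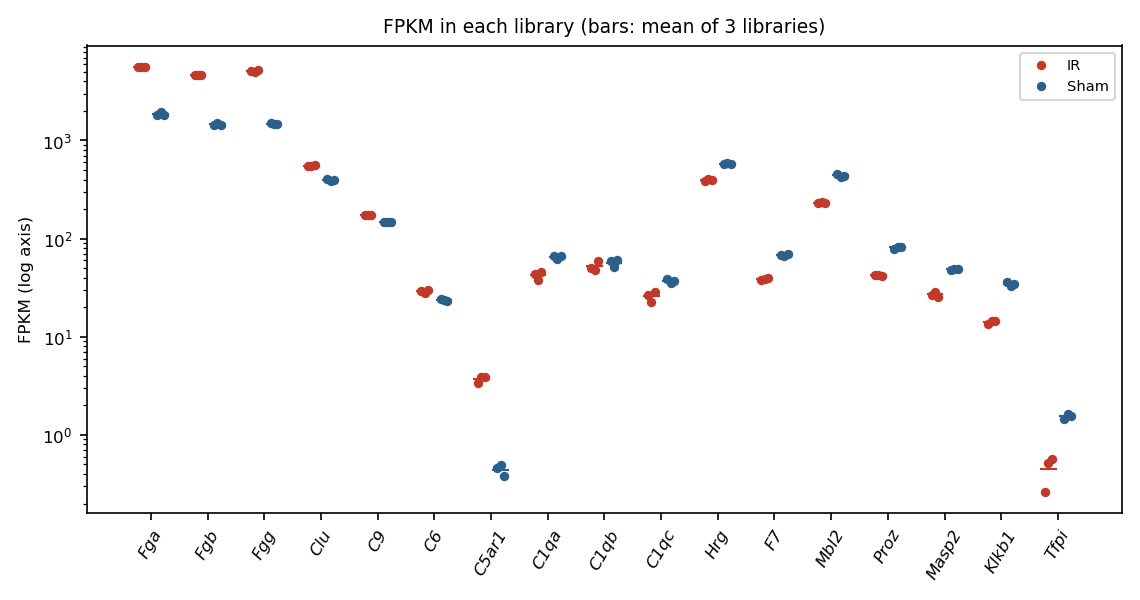
FPKM (log axis) of 17 members in each IR and Sham library, with bars for the mean of 3 libraries. The fibrinogen genes, Clu, C9, C6 and C5ar1 lie higher in IR, the genes from Hrg to Tfpi lie lower, and C1qb is the member shown whose groups overlap.

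The sequences just upstream of genes that moved in opposite directions are shown because the factors known to drive fibrinogen in the acute phase bind short motifs there. They are RefSeq windows on GRCm38.p6, printed 5′ to 3′ on the gene's own strand, of the 250 bases before the RefSeq start, without any bases that GENCODE M21 places inside the gene. Capitals mark matches on either strand to 4 motifs: TTCNNNGAA, the palindrome bound by STAT proteins, CTGGGA, the core of the interleukin-6 response element known from rat and human fibrinogen genes, TTGCNNAA, a form of the C/EBP site, and GTTAAT, a half-site of the hepatocyte factor HNF1. The Fga window is chr3:83025903-83026075 (plus strand), that of Fgb is chr3:83049864-83050113 (minus) and that of Fgg is chr3:83007474-83007723 (plus). The F9 window is chrX:59999214-59999463 (plus), that of Klkb1 is chr8:45294860-45295085 (minus) and that of Mbl2 is chr19:30232678-30232927 (plus).
Fga: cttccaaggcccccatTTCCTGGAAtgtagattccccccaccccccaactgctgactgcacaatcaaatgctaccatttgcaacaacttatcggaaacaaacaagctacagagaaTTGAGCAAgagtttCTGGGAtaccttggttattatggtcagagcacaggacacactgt
Fgb: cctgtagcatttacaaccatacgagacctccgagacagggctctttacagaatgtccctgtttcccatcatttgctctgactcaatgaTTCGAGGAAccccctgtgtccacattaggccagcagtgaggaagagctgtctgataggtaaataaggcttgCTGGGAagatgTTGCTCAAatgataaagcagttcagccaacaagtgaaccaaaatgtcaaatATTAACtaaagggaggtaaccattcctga
Fgg: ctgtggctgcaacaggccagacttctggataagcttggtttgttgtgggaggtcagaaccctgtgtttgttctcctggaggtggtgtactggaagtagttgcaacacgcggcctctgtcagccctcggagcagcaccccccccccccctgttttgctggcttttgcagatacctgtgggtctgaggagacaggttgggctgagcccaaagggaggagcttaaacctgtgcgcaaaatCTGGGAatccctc
F9: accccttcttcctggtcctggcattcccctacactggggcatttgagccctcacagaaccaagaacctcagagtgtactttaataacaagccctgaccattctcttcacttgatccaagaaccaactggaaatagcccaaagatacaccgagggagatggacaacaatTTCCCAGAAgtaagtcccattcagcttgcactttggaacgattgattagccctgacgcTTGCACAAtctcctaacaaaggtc
Klkb1: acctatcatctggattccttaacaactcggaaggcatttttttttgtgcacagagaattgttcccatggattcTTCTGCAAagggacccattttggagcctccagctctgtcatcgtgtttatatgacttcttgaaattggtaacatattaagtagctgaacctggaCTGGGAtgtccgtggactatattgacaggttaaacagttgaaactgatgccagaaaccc
Mbl2: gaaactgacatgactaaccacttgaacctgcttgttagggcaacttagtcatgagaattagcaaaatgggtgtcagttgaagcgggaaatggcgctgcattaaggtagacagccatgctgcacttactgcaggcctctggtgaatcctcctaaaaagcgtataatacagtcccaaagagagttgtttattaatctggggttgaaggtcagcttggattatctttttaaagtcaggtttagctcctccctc

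Over the full 250 bases, the windows of Fga and Fgb each held all 4 kinds of motif, with the GTTAAT match of Fga in the bases not printed, and that of Fgg held only CTGGGA. The window of F9, a gene that fell on the deposited scale, held 3 kinds, of which TTCNNNGAA and CTGGGA overlap each other. Klkb1 held CTGGGA and TTGCNNAA, and Mbl2 held none of the 4. Of all 32851 RefSeq windows of this length, 7.02% held TTCNNNGAA, 27.0% held CTGGGA, 9.56% held TTGCNNAA and 6.43% held GTTAAT on either strand. Windows were found for 40 of the 51 members. Among those tested, TTCNNNGAA lay in the windows of 2 of 11 members that rose, 2 of 18 that fell and 2 of 8 that did not pass. CTGGGA lay in 4 of 11, 5 of 18 and 5 of 8, TTGCNNAA in 4 of 11, 5 of 18 and 0 of 8, and GTTAAT in 4 of 11, 2 of 18 and 4 of 8, in the same order. A match is a description of the letters and is neither a site nor a cause.

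The C1 complex opens the classical pathway of complement, with C1q as its recognition part and C1r and C1s as its proteases. C1qa, the A chain of C1q, had 43.5, 38.1 and 46.0 FPKM in the IR libraries, against 65.9, 62.3 and 66.1 FPKM in the Sham libraries. C1qc, the C chain, had 26.8, 22.6 and 28.6 FPKM in IR and 38.6, 35.5 and 37.0 FPKM in Sham. C1qb, the B chain, had 50.5, 47.7 and 58.8 FPKM in IR and 59.3, 51.7 and 60.2 FPKM in Sham. The groups did not overlap for C1qa and C1qc, whereas for C1qb the highest IR library lay above the lowest Sham library.

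C1qa fell by 0.60 on the log2 scale (SE 0.0716, limma adjusted p = 1.27e-04) and C1qc by 0.50 (SE 0.0842, adjusted p = 8.79e-04), though C1qc missed the threshold under median-of-ratios scaling over all genes above 0 (-0.11, adjusted p = 0.267). C1qb was at -0.12 (SE 0.0907, adjusted p = 0.244) and passed when IR library 3 was left out (-0.21, adjusted p = 0.0473), while it rose under median-of-ratios scaling over all genes (0.27, adjusted p = 0.0177) and was at 0.17 over the tested genes. C1ra, which encodes a C1r protease, had 106 ± 3.79 FPKM in IR and 99.6 ± 1.69 FPKM in Sham, with every IR library above every Sham library. C1ra did not pass on the deposited scale (0.092, adjusted p = 0.0875) or under TPM scaling (0.062). It rose under median-of-ratios scaling over all genes (0.49) and over the tested genes (0.39). Quantile normalization gave a smaller rise (0.13, limma adjusted p = 0.0384). Of its 50-base stretches 50.8% also occur in other genes, mainly its copy C1rb, which was at most 0.297 FPKM in IR and 0.247 FPKM in Sham.

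In the lectin pathway the 2 mannose-binding lectins moved apart. Mbl2 had 232.2, 234.5 and 231.6 FPKM in the IR libraries, against 459.5, 423.6 and 438.4 FPKM in the Sham libraries. Mbl1 had 82.6, 80.4 and 84.6 FPKM in IR and 74.5, 64.3 and 71.0 FPKM in Sham. All IR libraries lay below all Sham libraries for Mbl2 and above them for Mbl1. Mbl2 fell by 0.92 on the log2 scale (SE 0.0435, limma adjusted p = 8.81e-07) and Mbl1 rose by 0.24 (SE 0.0601, adjusted p = 0.00728). The ratio of Mbl1 to Mbl2 was 0.355 ± 0.0111 in IR and 0.159 ± 0.00585 in Sham, without overlap (SD, n = 3 each).

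The lectins act through the proteases Masp1 and Masp2. Masp2, which cleaves C4 and C2, had 27.0, 28.4 and 25.6 FPKM in IR, against 48.2, 48.8 and 49.6 FPKM in Sham, and fell by 0.84 on the log2 scale (SE 0.0491, limma adjusted p = 2.53e-06). Its groups were well apart. On the opposite strand 54.9% of its exon bases overlap Tardbp, which was at 7.61 ± 0.336 FPKM in IR and 13.5 ± 0.386 FPKM in Sham, and how the authors handled strand is not given in the sources used here, so that reads of the 2 genes may not be told apart. Masp1 fell to 16.4 ± 0.297 FPKM in IR, against 21.5 ± 1.46 FPKM in Sham (-0.37, adjusted p = 4.83e-04), but was at 0.0075 under median-of-ratios scaling over all genes.

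The C3 and C5 convertases are assembled from C2 and C4, or from C3 and factor B with the help of factor D and properdin. C3, the central component of all 3 pathways and the most abundant complement member, had 1707 ± 17.9 FPKM in IR and 1997 ± 165 FPKM in Sham. It fell on the deposited scale (-0.22, SE 0.0618, limma adjusted p = 0.0113), close to the median of all genes, and was at 0.079 under median-of-ratios scaling over the tested genes and at -0.60 under quantile normalization. With no filter on low values it missed the threshold (adjusted p = 0.0542). C2 fell to 3.90 ± 0.424 FPKM in IR, against 6.84 ± 0.545 FPKM in Sham (-0.68, SE 0.0794, adjusted p = 1.13e-04), under all 5 scalings. Cfb, which encodes factor B, fell to 1.33 ± 0.0524 FPKM in IR, against 1.94 ± 0.123 FPKM in Sham (-0.34, adjusted p = 8.01e-04), but did not pass under 2 of the scalings.

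C2 and Cfb are neighbours, and 42.8% and 79.5% of their exon bases lie in the annotated gene Gm20547 on the same strand, which is not analysed here, so that their values are uncertain. C4b, which encodes C4, rose slightly to 264 ± 4.44 FPKM in IR, against 242 ± 8.53 FPKM in Sham (0.13, adjusted p = 0.0283). Its call was lost when any IR library or Sham library 1 was left out, at an adjusted p of up to 0.0829, and under TPM scaling (0.095, adjusted p = 0.0819). Of its 50-base stretches 34.6% are shared with its copy C4a, which had at most 1.27 FPKM in IR and 0.921 FPKM in Sham. Cfp, which encodes properdin, rose to 27.1 ± 2.08 FPKM in IR, against 23.6 ± 1.17 FPKM in Sham (0.19, adjusted p = 0.0319), but its groups overlapped and it no longer passed without IR library 1 or 3 or Sham library 1 or 2 (adjusted p of up to 0.0969) or with no filter (adjusted p = 0.0611). Cfd, which encodes factor D and is made mainly by fat cells, was listed at 0.302, 0.157 and 0.0803 FPKM in the IR libraries and at 0 in all Sham libraries, and it was not tested.

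The terminal components build the pore. C9, which forms the ring of the pore, had 173.1, 173.5 and 173.4 FPKM in the IR libraries, against 146.0, 149.3 and 148.7 FPKM in the Sham libraries, and rose by 0.23 on the log2 scale (SE 0.0366, limma adjusted p = 6.98e-04). C6 had 29.2, 28.1 and 30.2 FPKM in IR and 24.0, 24.0 and 23.4 FPKM in Sham and rose by 0.28 (SE 0.0447, adjusted p = 6.27e-04). In both genes the groups were apart, at ratios of mean FPKM of 1.17 for C9 and 1.23 for C6.

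The 3 chains of C8, which join before C9, differed from each other. C8g fell to 105 ± 1.70 FPKM in IR, against 132 ± 10.4 FPKM in Sham (-0.32, adjusted p = 0.00196), but was at 0.079 under median-of-ratios scaling over all genes. C8a had 173 ± 5.32 FPKM in IR and 179.6 ± 4.64 FPKM in Sham, and C8b had 150.4 ± 5.81 FPKM in IR and 147 ± 2.84 FPKM in Sham. Neither passed on the deposited scale (adjusted p = 0.312 and 0.473). Both rose under median-of-ratios scaling over the tested genes, C8a by 0.25 (limma adjusted p = 0.005) and C8b by 0.34 (limma adjusted p = 0.00101). The ratio of C8g to C8b was 0.7002 ± 0.0159 in IR and 0.899 ± 0.0828 in Sham, without overlap. That of C8a to C8b was 1.15 ± 0.0318 in IR and 1.22 ± 0.0137 in Sham, also without overlap. C8a and C8b lie next to each other on chromosome 4, and C8g lies on chromosome 2.

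Of the regulators, 2 soluble inhibitors of the pore were higher. Clu, which encodes clusterin, had 551, 544 and 556 FPKM in the IR libraries, against 405, 386 and 399 FPKM in the Sham libraries, and rose by 0.47 on the log2 scale (SE 0.0387, limma adjusted p = 1.53e-05). Vtn, which encodes vitronectin, rose to 1349.6 ± 34.9 FPKM in IR, against 1188 ± 60.6 FPKM in Sham (0.18, adjusted p = 0.00979), but was at -0.19 under quantile normalization. Cfi, which encodes the protease factor I that inactivates C3b and C4b, fell to 272 ± 5.04 FPKM in IR, against 353 ± 8.46 FPKM in Sham (-0.38, adjusted p = 6.34e-05), and was at 0.020 under median-of-ratios scaling over all genes. C4bp, which encodes a cofactor of factor I, had 71.9 ± 2.52 FPKM in IR and 74.9 ± 0.781 FPKM in Sham. It did not pass on the deposited scale (adjusted p = 0.245) but rose under median-of-ratios scaling over the tested genes (0.24, limma adjusted p = 0.00412).

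The membrane-bound regulators Cd55 and Cd59a, which protect the body's own cells from convertases and from the pore, were both lower. Cd59a fell to 12.3 ± 0.608 FPKM in IR, against 20.8 ± 1.08 FPKM in Sham (-0.72, SE 0.0574, limma adjusted p = 1.35e-05). Cd55 had 1.08, 1.52 and 2.33 FPKM in the IR libraries, against 2.94, 2.88 and 2.87 FPKM in the Sham libraries (-0.59, SE 0.153, adjusted p = 0.00844). The 3 IR libraries of Cd55 were spread over a wide range, with a coefficient of variation of 38.7%, and the 3 Sham libraries were close together. It missed the threshold under median-of-ratios scaling over all genes (-0.32, adjusted p = 0.0730).

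Of the receptors for the anaphylatoxins, the small fragments released from C3 and C5, C5ar1 showed the largest ratio of all members tested. It had 3.35, 3.92 and 3.90 FPKM in the IR libraries, against 0.455, 0.499 and 0.377 FPKM in the Sham libraries. The groups were far apart, at 494 to 694 rebuilt reads in IR and 52 to 92 in Sham. C5ar1 rose by 1.71 on the log2(FPKM + 1) scale (SE 0.0695, limma adjusted p = 4.44e-07), which understates the ratio of mean FPKM of 8.39, and it reached the minimum for testing only through its IR level. C3ar1 had 0.913 ± 0.0535 FPKM in IR and 0.965 ± 0.0916 FPKM in Sham, with overlapping groups, and was not tested. C5ar1 is carried by neutrophils and macrophages, and the 8 neutrophil markers tested of 12 all rose, against 24.3% of all genes. The list without Lcn2 summed to 153 to 195 FPKM in IR and to 11.4 to 12.8 FPKM in Sham. A marker low in Sham could reach the minimum for testing through its IR level alone, so that the count may be set in part by the filter. None of the 12 markers was at 0 in all libraries, and their part in the result was not tested.

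In the coagulation cascade all 6 proteases and cofactors tested fell on the deposited scale, where 53.8% of all genes fell. The direction of 3 of the 6 turned under another scaling. Under median-of-ratios scaling over the tested genes 3 fell and 1 rose, against 38.1% and 38.2% of all genes. F7, which encodes the factor VII that starts the cascade with tissue factor, had 37.9, 39.0 and 39.3 FPKM in the IR libraries, against 67.9, 66.0 and 69.8 FPKM in the Sham libraries. It fell by 0.79 on the log2 scale (SE 0.0423, limma adjusted p = 1.55e-06), with groups that did not overlap, and was the only one of the 6 to fall under all 5 scalings. F10, the factor X gene, fell to 131 ± 1.11 FPKM in IR, against 187 ± 6.65 FPKM in Sham (-0.51, adjusted p = 1.67e-05). F11, the factor XI gene, fell to 31.2 ± 1.60 FPKM in IR, against 44.6 ± 1.12 FPKM in Sham (-0.50, adjusted p = 5.05e-05). Both kept their sign under the 5 scalings but missed the threshold under median-of-ratios scaling over all genes (-0.11 each).

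The other 3 had a positive fold change under median-of-ratios scaling over all genes. F9, the factor IX gene, fell to 69.5 ± 2.35 FPKM in IR, against 86.3 ± 1.88 FPKM in Sham (-0.31, adjusted p = 3.49e-04), and was at 0.086 under median-of-ratios scaling over all genes. F5, the gene of the cofactor of factor X, fell to 65.1 ± 2.32 FPKM in IR, against 84.9 ± 13.4 FPKM in Sham (-0.37, adjusted p = 0.0119), was at 0.027 under that scaling and missed the threshold under quantile normalization (adjusted p = 0.109). Its Sham libraries were the most scattered of all members in that group, at 74.0, 99.9 and 80.7 FPKM, and the change was -0.25 without Sham library 2. F2, which encodes prothrombin, fell to 363 ± 4.68 FPKM in IR, against 399 ± 4.33 FPKM in Sham (-0.14, adjusted p = 0.00966). It fell by less than the median gene and rose under median-of-ratios scaling over the tested genes (0.16, adjusted p = 0.0109).

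Of the contact system, which links coagulation to the release of bradykinin, Klkb1 had the lowest log2(FPKM + 1) fold change of all members tested, although Tfpi, a low gene, fell by the larger ratio of FPKM. Klkb1 encodes plasma prekallikrein and had 13.6, 14.6 and 14.5 FPKM in the IR libraries, against 35.9, 32.6 and 34.5 FPKM in the Sham libraries. It was thus 2.41-fold lower in IR, with groups far apart, and fell by 1.21 on the log2 scale (SE 0.0537, limma adjusted p = 6.48e-07). The annotated gene Gm45753 overlaps 43.2% of its exon bases on the same strand and was listed at 0 in 5 libraries and at 0.00506 FPKM in Sham library 2. F12, which encodes the factor XII that activates prekallikrein, had 239 ± 2.54 FPKM in IR and 242.5 ± 4.37 FPKM in Sham. It did not pass on the deposited scale (adjusted p = 0.635) but rose under median-of-ratios scaling over the tested genes (0.28, limma adjusted p = 4.68e-04).

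The 2 kininogen genes, which encode the precursors of bradykinin and lie on chromosome 16, differed in sign on the deposited scale. Kng1 fell to 660.1 ± 0.962 FPKM in IR, against 834 ± 8.24 FPKM in Sham (-0.34, limma adjusted p = 6.27e-05), and was at 0.063 under median-of-ratios scaling over all genes. Kng2 rose to 150.2 ± 2.88 FPKM in IR, against 137 ± 0.580 FPKM in Sham (0.13, adjusted p = 0.0122), and did not pass without Sham library 3 (adjusted p = 0.0518). The ratio of Kng1 to Kng2, which a scaling factor per library cannot alter, was 4.40 ± 0.0866 in IR and 6.10 ± 0.0498 in Sham. The copies share 17.2% of the 50-base stretches of Kng1 and 19.4% of those of Kng2, so that part of their reads may have been split between them.

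Among the anticoagulants, Proz, which encodes the protein Z that helps to inhibit factor X, was among those that fell under all 5 scalings. It had 42.3, 42.3 and 41.7 FPKM in the IR libraries, against 79.2, 83.0 and 81.7 FPKM in the Sham libraries, and fell by 0.93 on the log2 scale (SE 0.0401, limma adjusted p = 5.72e-07). The groups were far apart, at a ratio of 1.93. Proc, which encodes protein C, fell to 151 ± 2.65 FPKM in IR, against 192 ± 7.41 FPKM in Sham (-0.34, adjusted p = 2.05e-04), and was at 0.056 under median-of-ratios scaling over all genes. Pros1, which encodes the protein S cofactor of protein C, had 23.8 ± 1.13 FPKM in IR and 24.6 ± 0.927 FPKM in Sham. It did not pass on the deposited scale (adjusted p = 0.462) but rose under median-of-ratios scaling over the tested genes (0.25, limma adjusted p = 0.00226).

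Tfpi, which encodes the inhibitor of the tissue factor and factor VII complex and is made largely by endothelium, had 0.265, 0.515 and 0.572 FPKM in the IR libraries, against 1.47, 1.65 and 1.55 FPKM in the Sham libraries. All IR libraries lay below all Sham libraries, and Tfpi fell by 0.82 on the log2 scale (SE 0.0910, limma adjusted p = 8.26e-05). It reached the minimum for testing only through its Sham level. F8, the gene of factor VIII, which in liver is made by sinusoidal endothelial cells, lay under the minimum, with 0.222, 0.249 and 0.413 FPKM in IR and 1.35, 1.59 and 1.35 FPKM in Sham. Its groups did not overlap, and with no filter on low values it was at -0.91 on the log2 scale (adjusted p = 2.52e-04).

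Of the plasminogen system, Plg, the gene of the clot-dissolving protease precursor, had 589 ± 9.42 FPKM in IR and 577 ± 38.7 FPKM in Sham. On the deposited scale the difference was within the spread of the Sham libraries (limma adjusted p = 0.626), but Plg rose under median-of-ratios scaling over the tested genes (0.33, adjusted p = 0.00232). Cpb2, which encodes a carboxypeptidase that slows clot breakdown, rose to 249.8 ± 9.91 FPKM in IR, against 221 ± 6.14 FPKM in Sham (0.18, adjusted p = 0.00856). Hrg, which encodes a histidine-rich protein that binds plasminogen and fibrinogen, had 386, 403 and 397 FPKM in the IR libraries, against 579, 585 and 582 FPKM in the Sham libraries. It fell by 0.56 on the log2 scale (SE 0.0377, adjusted p = 5.36e-06), with groups far apart.

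Of the cellular receptors for coagulation proteases, F2r, the thrombin receptor gene, had 4.02, 5.25 and 6.87 FPKM in the IR libraries, against 6.90, 6.76 and 6.52 FPKM in the Sham libraries. The third IR library lay among the Sham libraries, and F2r did not pass (-0.30, SE 0.145, limma adjusted p = 0.0912). Without that library it passed (-0.46, adjusted p = 0.00400). F2rl1, the gene of a receptor for trypsin-like proteases, had 0.285 ± 0.0455 FPKM in IR and 0.183 ± 0.0450 FPKM in Sham, lay under the minimum and was not tested.

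Set side by side by source, 11 of the 38 liver-made members rose and 20 fell in IR, and none of the 3 macrophage-made members rose while 2 fell. The liver-made shares of 28.9% and 52.6% were near the 24.3% and 53.8% of all genes. Under median-of-ratios scaling over all genes, 19 liver-made members rose and 8 fell, and 1 macrophage-made member (C1qb) rose and 1 (C1qa) fell. Of all 10316 genes tested, 4413 rose and 3341 fell under that scaling. The median log2 fold change was -0.18 for the liver-made and -0.50 for the macrophage-made members, against -0.23 for all genes tested. Without the fibrinogen chains, 8 of 35 liver-made members rose and 20 fell, and their median was -0.31. Under median-of-ratios scaling over the tested genes 19 liver-made members rose and 11 fell, against 38.2% and 38.1% of all genes. No macrophage-made member rose and 2 fell under this scaling. The medians were 0.12 for the liver-made and -0.21 for the macrophage-made members. The liver-made members ranged from Fgg to Klkb1, so that the 3 chains of C1q lay within their range, and no test between the 2 sources was made.

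**Figure D3:**
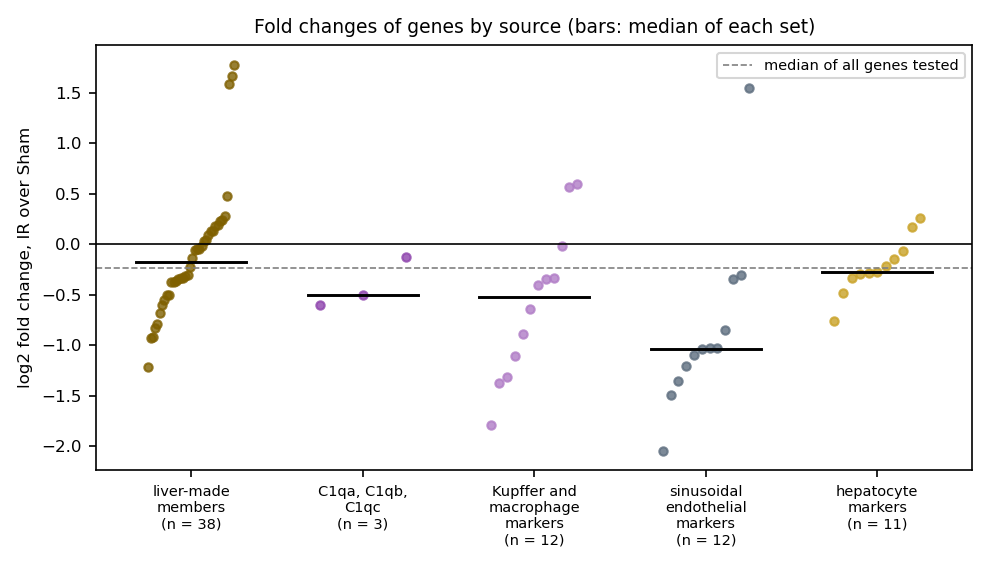
Log2 fold change (IR over Sham, on log2(FPKM + 1)) of each liver-made member, the 3 C1q chains, and the markers of 3 cell types, with a bar at the median of each set and a dashed line at the median of all genes tested. The liver-made members and the hepatocyte markers centre near the dashed line, at -0.18 and -0.28, while the C1q chains and the Kupffer cell and macrophage markers centre at -0.50 and -0.52.

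The C1q chains were read beside the markers of the cells that make them. The 3 chains summed to 108 to 133 FPKM in the IR libraries and to 149.5 to 164 FPKM in the Sham libraries, and they took 0.0295% ± 0.00306 and 0.0396% ± 0.00157 of the summed FPKM in IR and in Sham. Of 12 Kupffer cell and macrophage markers 8 (66.7%) fell and 2 (16.7%) rose, against 53.8% and 24.3% of all genes. Their median log2 fold change was -0.52, and they summed to 184 to 233 FPKM in IR and to 316 to 322 FPKM in Sham. Under median-of-ratios scaling over the tested genes 6 fell and 3 rose, against 38.1% and 38.2% of all genes, and the median was -0.29. None of these markers was at 0 in all libraries. Cd5l fell (-1.11), while Cd74, the most abundant marker, which other antigen-presenting cells also express, was at -0.023 and did not pass. In bulk tissue, fewer cells of a type and less RNA per cell cannot be told apart, and the part of the macrophages in the C1q result was not tested.

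Some single markers, chosen after their values were seen, fell further than any C1q chain. These were Adgre1 (-1.79), Vsig4 (-1.38), Csf1r (-1.32), Clec4f (-0.89) and Mpeg1 (-0.64), whereas Cd68 (0.57) and Cd163 (0.60) rose. Of the same list, Folr2 (-0.40) and Timd4 (-0.34) fell by less than C1qa and C1qc, and Marco (-0.34) did not pass. The ratio of C1qa to C1qb was 0.814 ± 0.0411 in IR and 1.14 ± 0.0589 in Sham, and that of C1qc to C1qb was 0.497 ± 0.0291 in IR and 0.651 ± 0.0363 in Sham (SD, n = 3 each). Neither ratio overlapped between the groups, although the 3 genes stand side by side on chromosome 4 (mm10, 136880129 to 136898803, minus strand) and their proteins join in equal numbers. The ratio of C1qa to C1qc was closer, at 1.64 ± 0.0397 in IR and 1.75 ± 0.0382 in Sham, but its groups did not overlap either.

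Within the IR group, but not within the Sham group, the chains and the markers had the same libraries as their lowest and highest. The mean deviation of the 12 Kupffer cell and macrophage markers from their IR mean, on the log2 scale, was 0.019, -0.15 and 0.13 in IR libraries 1, 2 and 3. For C1qa these deviations were 0.035, -0.15 and 0.12, for C1qb -0.045, -0.13 and 0.17, and for C1qc 0.047, -0.19 and 0.14. IR library 2 was the lowest and IR library 3 the highest in each case. The order was not particular to these genes. It also held, with smaller deviations, for the liver-made members C6 (0.0045, -0.053 and 0.049), Fgg, Mbl1, Vtn, Clu and F12, while the other liver-made members had other orders. In Sham libraries 1, 2 and 3 the markers deviated by -0.023, 0.050 and -0.028, and were highest in library 2, where each chain was lowest (C1qa -0.054, C1qb -0.14 and C1qc -0.058). The mean of the 11 hepatocyte markers tested deviated by less than 0.01 in every IR library, and they summed to 58620 to 61441 FPKM in IR and to 70353 to 72961 FPKM in Sham. Of these hepatocyte markers, 7 (63.6%) fell and 2 (18.2%) rose on the deposited scale, against 53.8% and 24.3% of all genes. Under median-of-ratios scaling over the tested genes 2 fell and 3 rose, against 38.1% and 38.2% of all genes.

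Cd55, F2r and Tfpi, which endothelial cells express, varied in another order within IR. The mean of the 12 sinusoidal endothelial markers deviated by -0.32, -0.0078 and 0.33 in IR libraries 1, 2 and 3. Cd55 deviated by -0.32, -0.043 and 0.36, and F2r by -0.32, -0.0048 and 0.33. Tfpi deviated less, by -0.19, 0.069 and 0.12. In all of these the first IR library was lowest and the third highest, and the same order held for the mean of the stellate (-0.16, -0.051 and 0.21), neutrophil (-0.13, -0.020 and 0.15) and monocyte markers (-0.065, -0.027 and 0.092). It held too for the liver-made members C2 (-0.12, -0.0013 and 0.13), Pros1, Masp1, F7, Proc, Fga and Fgb, and not for the other liver-made members. In Sham libraries 1, 2 and 3 the endothelial markers deviated by 0.062, 0.016 and -0.079, and Tfpi by -0.050, 0.053 and -0.0030, in another order. Of the endothelial markers 10 (83.3%) fell and 1 (8.33%), Lyve1, rose, against 53.8% and 24.3% of all genes. Their median log2 fold change was -1.04, and they summed to 44.6 to 89.7 FPKM in IR and to 78.3 to 88.5 FPKM in Sham, with none at 0 in all libraries. Their part in the results for Cd55, F2r and Tfpi was not tested.

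**Figure D4:**
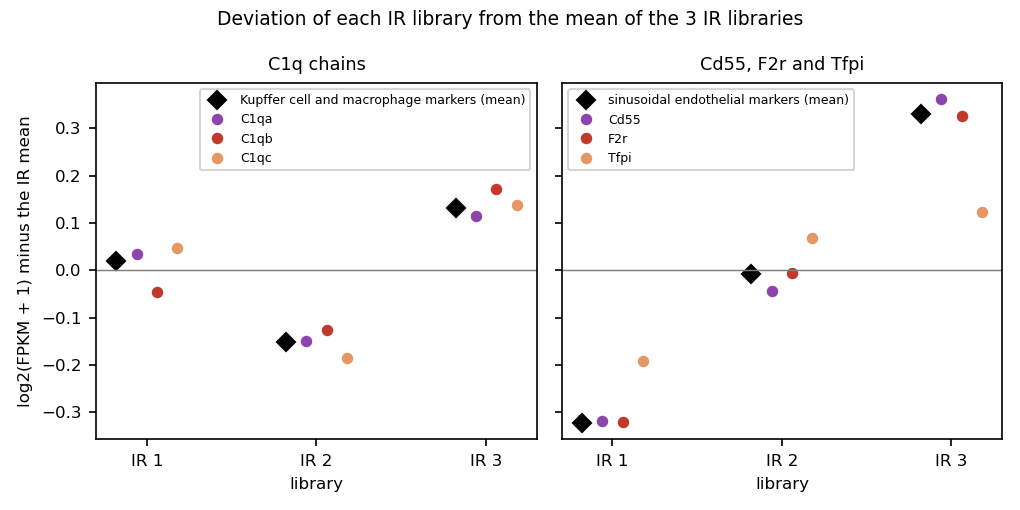
Deviation of each IR library from the mean of the 3 IR libraries, on log2(FPKM + 1), for the C1q chains beside the mean of the Kupffer cell and macrophage markers (left) and for Cd55, F2r and Tfpi beside the mean of the sinusoidal endothelial markers (right). On the left IR library 2 is lowest and IR library 3 highest, and on the right IR library 1 is lowest and IR library 3 highest.

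For most members the libraries of a group agreed closely. The median coefficient of variation of the 47 members was 3.08% in IR and 3.28% in Sham, where counting error alone would give medians of 0.810% and 0.658%. The tightest members were C9 in IR (0.123%) and Kng2 in Sham (0.424%). The widest were Cd55 in IR (38.7%) and F5 in Sham (15.8%).

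Members that lie close to each other in the genome (mm10, within 200 kb) did not always move together. F7, F10 and Proz, which stand side by side on chromosome 8 (13026034 to 13076026), all fell, and so did F11 and Klkb1 on the same chromosome (45241174 to 45294859). On chromosome 16 (22951072 to 23082078) Hrg and Kng1 fell while Kng2 rose, though the sign of Kng1 turned under median-of-ratios scaling over all genes. On chromosome 17 (34728380 to 34898265) Cfb and C2 fell while C4b rose. On chromosome 1 (130439027 to 130661632) Cd55 fell and C4bp did not pass.

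Other genes of the same pathways were read from lists of genes outside the 51 members. Of 31 other complement genes 20 were tested, of which 3 (15%) rose and 12 (60%) fell, against 24.3% and 53.8% of all genes, with a median log2 fold change of -0.41. The largest changes were those of the collectins Colec11 (-1.95) and Colec10 (-1.80), which like the mannose-binding lectins start the lectin pathway. Colec11 had 5.56 ± 1.54 FPKM in IR and 23.9 ± 0.675 FPKM in Sham. C1rl, a relative of the C1r protease, fell (-1.42), as did Vsig4, a Kupffer cell receptor for C3b (-1.38), and Cpn2, a subunit of the carboxypeptidase that inactivates anaphylatoxins (-1.19). Cd93, a surface protein once taken for a C1q receptor, rose (1.28).

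Of 28 other coagulation genes 19 were tested, of which 6 (31.6%) rose and 10 (52.6%) fell, near the 24.3% and 53.8% of all genes, with a median of -0.38. Thbd, which encodes thrombomodulin, the endothelial cofactor for protein C activation, had 17.5, 24.5 and 33.8 FPKM in IR and 0.765, 0.876 and 1.03 FPKM in Sham (3.75, SE 0.203, adjusted p = 1.66e-06). Procr, the gene of the endothelial protein C receptor, had 11.05, 11.36 and 11.03 FPKM in IR and 0.517, 0.659 and 0.652 FPKM in Sham (2.92, SE 0.0539, adjusted p = 2.12e-08). In both genes the groups were far apart, while Proc itself fell on the deposited scale and turned to 0.056 under median-of-ratios scaling over all genes. Thbd and Procr had Sham means of 0.891 and 0.609 FPKM, so that their IR levels alone brought them to the minimum for testing.

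Plaur, the gene of the urokinase receptor, rose to 5.15 ± 0.663 FPKM in IR, against 0.264 ± 0.0897 FPKM in Sham. Its log2 fold change with the pseudocount of 1 was 2.28, although the ratio of mean FPKM was 19.5. Plaur too was brought to the minimum for testing by its IR level alone. Serpina10, whose product inhibits factor X with protein Z as its cofactor, rose to 183 ± 7.95 FPKM in IR, against 60.2 ± 1.59 FPKM in Sham (1.59), in contrast to Proz. Ggcx, the enzyme that carboxylates the vitamin K-dependent factors, fell to 5.54 ± 0.595 FPKM in IR, against 14.8 ± 0.603 FPKM in Sham (-1.27, SE 0.0731, limma adjusted p = 2.24e-06). Its 7 substrates among the members were grouped after their values were seen. Of these, F2, F7, F9, F10, Proc and Proz fell on the deposited scale, where 53.8% of all genes fell, and Pros1 missed the threshold. With median-of-ratios factors over all genes, F7 and Proz still fell. F2 (0.26, limma adjusted p = 0.00313) and Pros1 (0.34, limma adjusted p = 5.78e-04) rose there. F9 and Proc turned in sign without reaching the threshold, and F10 kept its sign but missed it. Of all 10316 genes, 4413 rose and 3341 fell under that scaling. The genes named here from both lists held their direction and passed under all 5 scalings.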

How the data were processed

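RNA sequencing of mouse liver gave 3 IR and 3 Sham libraries, each placed in its group by its title. The authors deposited 1 table of FPKM values, and the genome build mm10 is named per the submitters' processing notes. What aligner and counter were used, and whether strand was considered, was not given in the sources used here. FPKM multiplied by GENCODE M21 exon length and a rebuilt library total gave whole reads, within 0.05, for 98.3% of 27072 genes, and this gave the depth. Counting error was computed from these reads and covers counting alone.

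Genes with a mean of at least 1 FPKM were tested with two-sided moderated tests of limma 3.58.1 (R 4.3.3; eBayes with a mean trend) on log2(FPKM + 1). The pseudocount was thus 1, and p-values were adjusted by the Benjamini-Hochberg method and called under 0.05. The log2 scale with this pseudocount understates the change of low genes. The fit was checked on simulated data in which few genes changed, up and down alike. That setting held no shift of all genes, so the check does not bear on the choice of scaling. Standard errors are those of limma, and FPKM is given as mean ± SD over 3 libraries. Exact permutation of 3 against 3 libraries cannot go below p = 0.1 and was not used. Tables and plots were made in Python 3.11.15 with pandas 2.3.3 and matplotlib 3.10.9.

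The 5 scalings were FPKM as deposited, TPM, median-of-ratios over all genes above 0, median-of-ratios over the tested genes (added after seeing the data) and quantile normalization. The pseudocount (0.1, 0.5), the filter (none, or 5 FPKM), robust limma, limma voom on the rebuilt reads, a replicate block and the removal of each library were varied as well. The members, lists and sources were chosen with earlier results of these data known. Any member could be named. Of the other genes, the 6 largest changes per pathway list and the 2 most abundant markers per cell type could be named, and exceptions are stated. 1 gene that this rule takes is not reported here by name and remains in the counts. Marker lists of monocytes, stellate cells, platelets and adipocytes were also read. Of these, all 4 monocyte markers tested of 8 rose, 7 of 9 stellate markers fell and 2 of 4 platelet markers rose, against 24.3% of all genes that rose and 53.8% that fell. A monocyte marker low in Sham could be tested through its IR level alone. Of the adipocyte genes, 2 of 6 (Lep and Retn) were at 0 in all libraries. Promoter windows are from RefSeq on GRCm38.p6. Of C8g and Tfpi, which had more than 1, the window nearest the M21 start was used.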

Additional observations from a re-analysis of the deposited data

How the results depend on the processing

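Every fibrinogen chain, Klkb1, Proz, Mbl2, Masp2 and F7 kept its direction and stayed past the threshold under all 17 alternatives, as did C5ar1 except that a filter of 5 removed it. The scaling changed most. Under median-of-ratios scaling over all genes and over the tested genes, 22 and 21 members were higher (13 as deposited) and 11 and 16 lower (25), and 4413 and 3939 of all genes were higher (2505), with 3341 lower under the first (5548). The liver-made median of -0.18 turned to 0.22 and 0.12, and was -0.21 with TPM, -0.14 with a filter of 5, -0.19 with quantile normalization, -0.14 without members of mixed source and -0.21 to -0.15 with 1 library left out. The macrophage-made median of -0.50 was -0.11, -0.21 and, with quantile normalization, -0.39. A filter of 5 left 1359 genes higher and 2573 lower because fewer genes were tested, and no filter gave 8843 lower because more were.

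Signs turned under median-of-ratios scaling over all genes for C1qb (0.27), C3 (0.18), C8a (0.35), C8g (0.079), Cfi (0.020), C4bp (0.34), Masp1 (0.0075), F2 (0.26), F5 (0.027), F9 (0.086), F12 (0.38), Kng1 (0.063), Proc (0.056), Pros1 (0.34) and F2r (0.040). Over the tested genes they turned for C1qb (0.17), C3 (0.079), C8a (0.25), C4bp (0.24), F2 (0.16), F12 (0.28) and Pros1 (0.25), and with quantile normalization for C4bp (0.053), Vtn (-0.19), F12 (0.012), Plg (-0.032) and Pros1 (0.039). Plg ranged from -0.017 to 0.079 with 1 library left out. By construction, median-of-ratios scaling moved the all-gene median to 0.080 (all genes) and 0.0027 (tested genes). The cause of the shift was not tested.

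Deviations of same-numbered libraries from their group means showed no positive correlation (-0.0964, -0.0495 and -0.220 over 4892 genes). Deviations within a group are tied to each other, so a pairing by replicate number cannot be judged from these values alone. With the replicate block, 12 members were higher and 25 lower, with 2473 and 5491 of all genes, and C4b lost its call (adjusted p = 0.0525). With 3 libraries a group, small changes such as those of C4b, Cfp and Kng2 rest on single libraries. Depth limits Cfd and F2rl1, which had few reads.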
